A study of Mus musculus with 4 samples.

Results

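Camp, Ngp, Ltf, Lcn2, Mmp8, Mmp9, Retnlg, S100a8, S100a9 and Slpi, messages of the granules and cytosol of neutrophils, were followed through tumour leukocytes. They are 10 of the 33696 genes counted by single-cell RNA sequencing. They were read in neutrophils, defined as cells with a unique molecular identifier (UMI, a tag that marks 1 captured transcript) of 2 or more of Csf3r, Cxcr2, G0s2 and Hdc and none of Csf1r, and as free RNA in T cells and natural killer (NK) cells, which should lack them. The rule held for 6565 of the 48858 cells kept. The cells were live CD45+ leukocytes sorted from subcutaneous KPC tumours, a transplanted mouse pancreatic cancer line, in male C57BL/6 mice of 8 to 10 weeks. Tumours were harvested on day 14, and 10 of them were pooled into the single library of each group. The 4 groups were untreated tumours, ADU-S100 (a STING agonist, 2 µg into the tumour once), anti-LTβR (an antibody that activates the lymphotoxin-β receptor, 100 µg into the peritoneum at each of 4 injections) and the combination of both. With 1 library per group no difference had a replicate check, so no test was made and all intervals below are 95% intervals that cover counting error only.

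Neutrophils build their granules in sequence while they mature in the bone marrow, and each granule type carries the proteins that were made while it formed. Camp (a cathelicidin), Ngp, Ltf (lactoferrin, which binds iron) and Lcn2 (lipocalin-2, which binds bacterial siderophores) belong to the specific granules, whereas the collagenase Mmp8 and the gelatinase Mmp9 fill the later specific and gelatinase granules. Transcripts of the early granule genes are known to fade before neutrophils leave the marrow, so they mark immature cells. S100a8 and S100a9 encode the subunits of calprotectin, a calcium-binding cytosolic complex that is among the most abundant products of a neutrophil. Retnlg is a resistin-like secreted protein of mouse neutrophils, and Slpi is an inhibitor of neutrophil elastase that epithelial cells and other leukocytes also make.

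The sequence in front of the RefSeq start of 5 of these genes is given here, because their transcripts were found together in the cells, Camp with Ngp and Ltf on one side and S100a8 with S100a9 on the other. Each line is the 250 bases before the start, read on the strand of the gene in build GRCm38.p6, at chr9:109849457-109849706 (Camp, minus strand), chr9:110419558-110419807 (Ngp, plus strand), chr9:111019042-111019291 (Ltf, plus strand), chr3:90668821-90669070 (S100a8, plus strand) and chr3:90695722-90695971 (S100a9, minus strand). Capitals mark the letters TTGCNNAA or TTNNGCAA (a C/EBP core on either strand), GAGGAAGT or ACTTCCTC (a PU.1 core on either strand) and TATAAA, searched on the strand of the gene alone.
Camp: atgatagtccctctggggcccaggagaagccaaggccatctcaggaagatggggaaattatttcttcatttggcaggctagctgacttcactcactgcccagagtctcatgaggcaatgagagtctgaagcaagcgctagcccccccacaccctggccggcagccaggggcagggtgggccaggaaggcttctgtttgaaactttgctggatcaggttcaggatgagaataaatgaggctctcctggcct
Ngp: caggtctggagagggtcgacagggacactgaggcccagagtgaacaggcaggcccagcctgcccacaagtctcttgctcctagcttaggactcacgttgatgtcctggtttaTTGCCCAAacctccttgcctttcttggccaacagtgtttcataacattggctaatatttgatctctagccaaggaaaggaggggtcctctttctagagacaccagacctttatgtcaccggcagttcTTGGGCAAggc
Ltf: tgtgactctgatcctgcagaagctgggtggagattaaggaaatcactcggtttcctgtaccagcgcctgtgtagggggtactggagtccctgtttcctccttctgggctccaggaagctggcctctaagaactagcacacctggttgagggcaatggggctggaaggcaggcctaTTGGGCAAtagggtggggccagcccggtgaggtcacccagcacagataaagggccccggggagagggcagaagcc
S100a8: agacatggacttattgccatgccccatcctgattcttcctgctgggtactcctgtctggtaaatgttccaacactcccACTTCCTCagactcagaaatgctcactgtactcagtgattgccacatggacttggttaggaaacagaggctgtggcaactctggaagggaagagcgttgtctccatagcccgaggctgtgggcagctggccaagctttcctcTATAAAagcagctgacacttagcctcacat
S100a9: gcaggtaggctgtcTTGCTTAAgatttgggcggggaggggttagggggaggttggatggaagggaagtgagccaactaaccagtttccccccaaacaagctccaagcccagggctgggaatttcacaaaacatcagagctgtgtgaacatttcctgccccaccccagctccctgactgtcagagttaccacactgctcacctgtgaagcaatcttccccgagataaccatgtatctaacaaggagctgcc

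The RefSeq promoter table used here was matched for 9 of the 10 genes, all but Mmp9. The C/EBP letters lay in this window of 7 of the 9 genes, namely Ngp, Ltf, Lcn2, Mmp8, Retnlg, S100a9 and Slpi, beside 9.57% of all 32841 windows of the same length. Ngp held 2 such matches, at bases -138 to -131 and -11 to -4 from its start, and Ltf 1 at -75 to -68. The PU.1 letters lay in Mmp8 and S100a8, beside 2.44% of all windows, and TATAAA in S100a8, at -30 to -25, beside 7.59%. The 3 motifs do not overlap in these genes, and a match is only a run of letters. In the GENCODE M21 transcripts the RefSeq start lies 161 bases into Camp, 61 into Ngp and 93 into S100a8, so part of those windows is transcribed in that annotation. For Lcn2 it lies 20 to 329 bases into the transcripts that hold it and for Ltf up to 21, for S100a9 and Slpi it is the start of a transcript, and no M21 transcript of Mmp8 or Retnlg held it.

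The 4 libraries held 8730 to 16322 cells and 52109958 to 85855398 UMIs, and 34 to 83 cell barcodes were shared by any 2 of them. Neutrophils were 385 of 7524 kept cells in the untreated library (5.12%, interval 4.63 to 5.64), 4199 of 13444 after ADU-S100 (31.2%, 30.5 to 32.0), 828 of 13223 after anti-LTβR (6.26%, 5.85 to 6.69) and 1153 of 14667 after the combination (7.86%, 7.43 to 8.31). Their median depth was 1901, 2247, 1671.5 and 1058 UMIs in that order, so levels are given per 1000000 UMIs of the neutrophils of a library (CPM). Between 99.0% and 99.8% of the cells held at least 2 of 12 neutrophil markers that the rule did not use, and the interleukin-1β gene Il1b was found in 95.8% to 98.2%. Red cell markers were at 0 or 1 UMI in every library. The untreated library stood apart in that 17 of its 385 cells (4.42%) held 2 or more of 5 mast cell and basophil markers, against 0.0953% to 0.694% in the others. Cells with 2 or more of 7 macrophage and monocyte markers were 9.35%, 6.10%, 6.16% and 7.81% of neutrophils, with a summed level of 488, 247, 489 and 577 CPM, and the plasma cell gene Jchain was found in 2.60%, 1.64%, 10.5% and 10.7%. The part of these cells and of free RNA in the results was tested only where stated. Inside the rule, cells with 3 or 4 of the rule genes held S100a9 at 27718 to 42812 CPM and cells with exactly 2 of them at 7243 to 16625 CPM, and just outside it, cells with only 1 held 894 to 3815 CPM.

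S100a8 and S100a9 were the most abundant of the 10 messages, and both lay above the untreated level in all 3 treated libraries, by less than 2-fold. In neutrophils S100a8 stood at 15700.5 CPM (15429 to 15976) untreated, 20627 (20539.9 to 20714) after ADU-S100, 25952 (25700.4 to 26205) after anti-LTβR and 17606 (17392 to 17822) after the combination. S100a9 stood at 22824 (22496 to 23155), 32385 (32276 to 32494), 37704 (37401 to 38009) and 27203 (26937 to 27471) in the same order. The 2 genes ordered the libraries alike, anti-LTβR first and untreated last, and no interval touched the next. None of these differences reached 2-fold: S100a9 was 1.42-fold, 1.65-fold and 1.19-fold the untreated level. Among all genes S100a9 held rank 1 or 2 and S100a8 rank 3 to 5 by neutrophil UMIs, which count captured transcripts and are not divided by gene length. Together they made up 3.85% of neutrophil UMIs in the untreated library, 5.30% with ADU-S100, 6.37% with anti-LTβR and 4.48% with the combination.

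Detection of S100a9 was almost complete. It was found in 85.2% of untreated neutrophils (81.2 to 88.6) and in 94.0% (93.2 to 94.7), 95.3% (93.6 to 96.6) and 93.9% (92.4 to 95.2) of those of the treated libraries, against 0.452% to 10.1% of T and NK cells, whose median depth was 1976 to 4276 UMIs. After every neutrophil was thinned to 500 UMIs, which left out none of them, these shares were 78.4%, 89.0%, 92.4% and 90.6%. Without the cells holding 2 or more mast cell and basophil markers S100a9 stood at 24101 CPM in the untreated library, and the log2 ratio to it was above 0 after ADU-S100 (0.43), after anti-LTβR (0.65) and after both agents (0.19). The receptors through which calprotectin is known to act were within 2-fold in all 5 comparisons where they had enough UMIs, Tlr4 at 367 to 439 CPM and its co-receptor Cd14 at 5197 to 6469 CPM, and Ager held 26 UMIs in all.

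**Figure D1:**
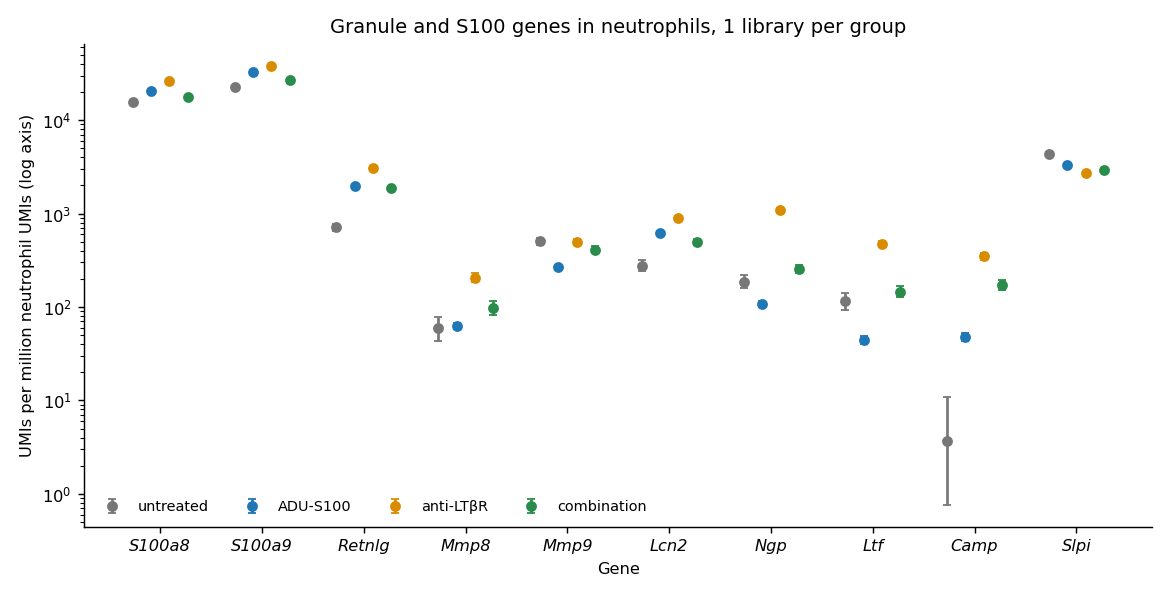
Level of each gene in neutrophils of the 4 libraries, in CPM on a log axis, with bars for the exact Poisson 95% interval. S100a8 lies at 15700.5 to 25952 and S100a9 at 22824 to 37704, and Camp spans 3.70 to 348.

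Retnlg was at least 2-fold higher in every treated library, under every setting tried. Its level was 712 CPM (655 to 773) in the untreated library, 1964 (1937 to 1991) after ADU-S100, 3051 (2965 to 3139) after anti-LTβR and 1858 (1789 to 1929) after the combination. The untreated library was lowest by a wide margin, whereas the combination and ADU-S100 lay close together. The log2 ratio to untreated reached 1.46 (1.34 to 1.59) after ADU-S100, 2.10 (1.97 to 2.23) after anti-LTβR and 1.38 (1.25 to 1.52) after both. All 3 stayed at least 2-fold under each of the 16 alternative settings, at their lowest 1.14, 1.47 and 1.08. Retnlg was found in 28.6% of untreated neutrophils and in 53.7%, 55.1% and 46.3% of those of the ADU-S100, anti-LTβR and combination libraries. Thinned to 500 UMIs the shares were 19.0%, 34.0%, 36.5% and 34.7%, and in T and NK cells it was found in at most 0.724%.

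Lcn2 followed the same order at a lower level. It stood at 277 CPM (242 to 316) untreated, 622 (607 to 637) after ADU-S100, 890 (844 to 938) after anti-LTβR and 498 (463 to 536) after the combination. ADU-S100 was 2.24-fold and anti-LTβR 3.20-fold the untreated level, and the combination, at 1.80-fold, did not reach 2-fold. With 3 or more rule genes the log2 ratio for ADU-S100 was 0.83, within 2-fold. In the anti-LTβR library the excess sat in few cells, since 10 of the 828 neutrophils held 52.6% of the Lcn2 UMIs and without 13 granule-rich cells described below the level was 423 CPM, within 2-fold of untreated. With ADU-S100 it was spread more widely, the top 10 of 4199 cells holding 10.8%. The top 50 there, close to the same share of the cells as 10 of 828, held 27.8%.

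The 2 collagen-degrading proteases differed from each other. Mmp9 was 503 CPM (455 to 554) untreated, 268 (258 to 278) after ADU-S100, 497 (462 to 533) after anti-LTβR and 411 (379 to 445) after the combination. The ADU-S100 library was the low one, at 0.533-fold the untreated level, just short of 2-fold lower, and it passed 2-fold lower only with 3 or more rule genes (log2 ratio -1.02), after thinning to 500 UMIs (-1.03) and in 2 further settings. Mmp8 was 59.1 CPM (43.6 to 78.4), 62.7 (58.0 to 67.7), 206 (184 to 230) and 97.9 (82.6 to 115) in the same order, so only the anti-LTβR library was at least 2-fold above untreated (3.46-fold). There 10 of 828 cells held at least 50% of its UMIs, and without the granule-rich neutrophils described below it was 111 against 53.3 CPM, a log2 ratio of 1.04. Mmp8 was not mainly a neutrophil message here, since neutrophils by the rule held 12.4% to 35.8% of its UMIs.

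Camp and Ngp were held almost entirely by a handful of cells, and Ltf largely so except after ADU-S100. Camp held 3 UMIs in 1 of 385 untreated neutrophils, 500 UMIs in 11 of 4199 cells with ADU-S100, 547 UMIs in 12 of 828 with anti-LTβR and 251 UMIs in 4 of 1153 with the combination. Ngp held 152, 1135, 1731 and 374 UMIs in 3, 51, 24 and 14 cells of the same libraries. Ltf held 94, 466, 739 and 214 UMIs in 14, 171, 33 and 23 cells. A single cell carried 244 of the 251 Camp UMIs of the combination library, and a single cell carried 149 of the 152 Ngp UMIs of the untreated one.

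**Figure D2:**
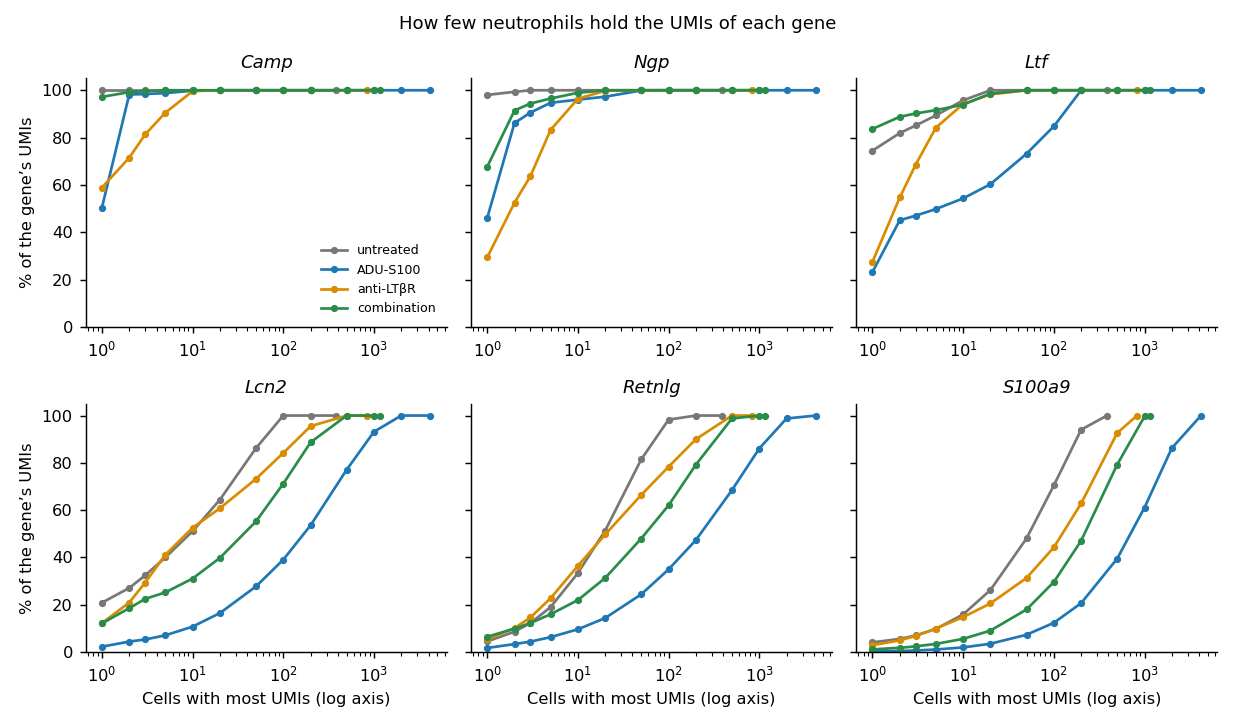
Share of a gene's neutrophil UMIs (vertical axis, %) held by the cells with most of them (horizontal axis, number of cells on a log axis), by library. The curves of Camp and Ngp reach 96.0% to 100% within 10 cells, whereas the 10 top cells hold 1.98% to 15.9% of S100a9 UMIs.

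These cells were counted as those with 10 or more UMIs of the 3 genes summed, at least 1 of them from Camp or Ngp, a limit set after the values were seen. They numbered 1 of 385 neutrophils in the untreated library (0.260%, interval 0.00658 to 1.44), 4 of 4199 after ADU-S100 (0.0953%, 0.0260 to 0.244), 13 of 828 after anti-LTβR (1.57%, 0.839 to 2.67) and 3 of 1153 after the combination (0.260%, 0.0537 to 0.758). The anti-LTβR share lay above the intervals of the ADU-S100 and combination libraries, and its interval overlapped that of the untreated one. The 21 cells held 99.2% of all Camp, 96.6% of all Ngp and 77.5% of all Ltf UMIs found in neutrophils, and 15 of them held all 3 genes. Over single neutrophils of a library, thinned to 500 UMIs, Camp and Ngp were correlated, with Pearson's r of 0.66 to 0.95, a description that rests on those few cells.

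Other members were also read in the granule-rich neutrophils. They held S100a8 at 157211, 91412, 105095 and 100040 CPM in the untreated library and after ADU-S100, anti-LTβR or both, against 14822, 20455, 21514 and 16763 CPM in the other neutrophils. Lcn2 stood at 9389, 14537, 9221 and 9198 CPM in them, against 221 to 588 CPM in the others. S100a9 stood at 152617, 105594, 113800 and 38875 CPM in them, against 22018 to 33438 CPM in the others. These pooled levels do not hold for every cell, since the only untreated cell held no Retnlg and 1 of the 3 cells of the combination held 3 UMIs of S100a8, 7 of S100a9 and 1 of Lcn2. The cells with most Camp differed in the later granule messages. The 2 neutrophils with most Camp in the ADU-S100 library held 252 and 239 UMIs of it and no UMI of Mmp8 or Mmp9, and the top cell of the combination library held 244 and likewise none, whereas the top cell of the anti-LTβR library held 322 with 5 UMIs of Mmp8 and 10 of Mmp9. The other 2 cells of the ADU-S100 library held 1 UMI of Camp each beside 34 and 12 of Mmp8 and 336 and 361 of Retnlg. The median depth of the granule-rich neutrophils of a library, 5006 to 6550.5 UMIs, was above the 1057.5 to 2246 of the other neutrophils, and the part of depth in these levels was not tested. A further 6 cells met the same limit outside the neutrophil rule, 2 of them for carrying Csf1r, and 1 of them in the ADU-S100 library held 241 Camp UMIs with no Csf3r, Cxcr2 or Hdc.

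The level ratios of these 3 genes rested on few cells. With the combination 1 cell held 97.2% of Camp, 67.6% of Ngp and 83.6% of Ltf UMIs. With ADU-S100 2 cells held 98.2%, 86.2% and 45.1% in the same order. Camp was 3.70 CPM (0.762 to 10.8) untreated, 47.8 (43.7 to 52.1) after ADU-S100, 348 (320 to 379) after anti-LTβR and 171 (150.2 to 193) after the combination, giving log2 ratios to the 3 untreated UMIs of 3.47 (2.14 to 5.97), 6.34 (5.00 to 8.84) and 5.31 (3.97 to 7.82). Ngp was 187 CPM (159 to 220), 108 (102 to 115), 1102 (1051 to 1155) and 254 (229 to 281) in the order untreated, ADU-S100, anti-LTβR and combination. Ltf was 116 (93.6 to 142), 44.5 (40.6 to 48.8), 470.4 (437 to 506) and 146 (127 to 166). Without the 1 neutrophil of each library with most of the gene, Ltf with ADU-S100 turned from 2-fold lower to level with untreated (34.2 against 29.8 CPM), and Camp of the combination was 4.78 CPM. The anti-LTβR library did not depend on its top cell, and without it held Camp at 144 CPM, Ngp at 785 and Ltf at 343, against 0, 3.72 and 29.8 untreated. Without the granule-rich neutrophils the 3 genes stood at 0 to 29.8 CPM in every library, a low level that follows from how those cells were chosen.

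Slpi was held mostly by cells other than neutrophils. Neutrophils held 8.84% of its UMIs in the untreated library, 35.6% with ADU-S100, 2.94% with anti-LTβR and 3.05% with the combination, whereas cells with 2 or more B cell and plasma cell markers held 67.0%, 26.5%, 71.6% and 76.5%. In neutrophils it stood at 4361 CPM (4218 to 4507), 3306 (3271 to 3341), 2726 (2645 to 2809) and 2922 (2836 to 3011), so the untreated level was the highest. That order rested on 1 cell: a single untreated neutrophil by the rule held 1664 of 3539 Slpi UMIs together with 125 UMIs of the plasma cell gene Jchain and all 5 B-lineage markers. Without the 1 neutrophil with most Slpi in each library the levels were 2361, 3270, 2673 and 2401 CPM, and ADU-S100 became the highest.

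**Figure D3:**
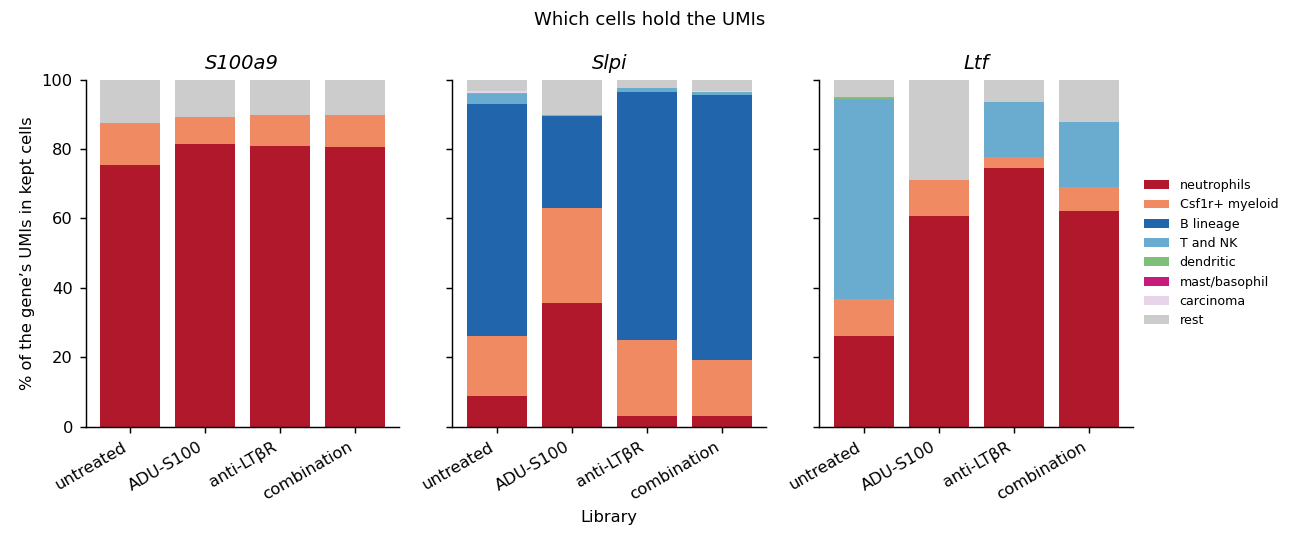
Share of all UMIs of S100a9, Slpi and Ltf in kept cells (vertical axis, %) that each cell population held, by library. Neutrophils hold 75.3% to 81.6% of S100a9, the B lineage 26.5% to 76.5% of Slpi, and T and NK cells a visible part of Ltf in every library but ADU-S100.

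Taking the members as a set, a gene was counted as higher or lower when it differed at least 2-fold with 200 or more UMIs over both libraries. Camp in each comparison with untreated, and Mmp8 with anti-LTβR, reached 200 UMIs only through the treated library where they were high, so they are left out of the counts against untreated. The shares of all genes, here and for T and NK cells below, keep such genes, so counts and shares are not filtered alike. Of the other members, ADU-S100 had Lcn2 and Retnlg higher (2 of 9, with 2.98% of the 4256 genes so called) and Ltf lower (1 of 9, with 6.04%). The anti-LTβR library had Ngp, Ltf, Lcn2 and Retnlg higher (4 of 8, with 1.84% of 1736 genes) and none lower (0.979%). With Camp and Mmp8 6 were higher, of which 2 stayed so without the granule-rich neutrophils and 2 at 500 UMIs per cell. The combination had Retnlg higher (1 of 8, with 1.59% of 1701 genes) and none lower (0.529%). The 3 contrasts share the untreated library, and the median log2 ratio of all genes was -0.24, -0.06 and -0.04, against 0.070, 1.20 and 0.29 over the members counted. Measured against that median, Retnlg with ADU-S100 stood at 1.71 and S100a9 at 0.75, and no call of a member changed.

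Between the combination and the single agents the called differences lay in granule genes. Compared with ADU-S100 it had Camp, Ngp and Ltf higher (3 of 10, with 3.24% of 4412 genes) and none lower (1.52%), while the median gene shifted by 0.16. Compared with anti-LTβR it had Camp, Ngp, Ltf and Mmp8 lower (4 of 10, with 0.629% of 2066 genes) and none higher (1.06%). Without the granule-rich neutrophils none of the members with 200 UMIs left was 2-fold apart in either comparison. The members spread over many cells moved less: the combination held Retnlg at a log2 ratio of -0.08 to ADU-S100 and -0.72 to anti-LTβR, and S100a9 at -0.25 and -0.47.

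**Figure D4:**
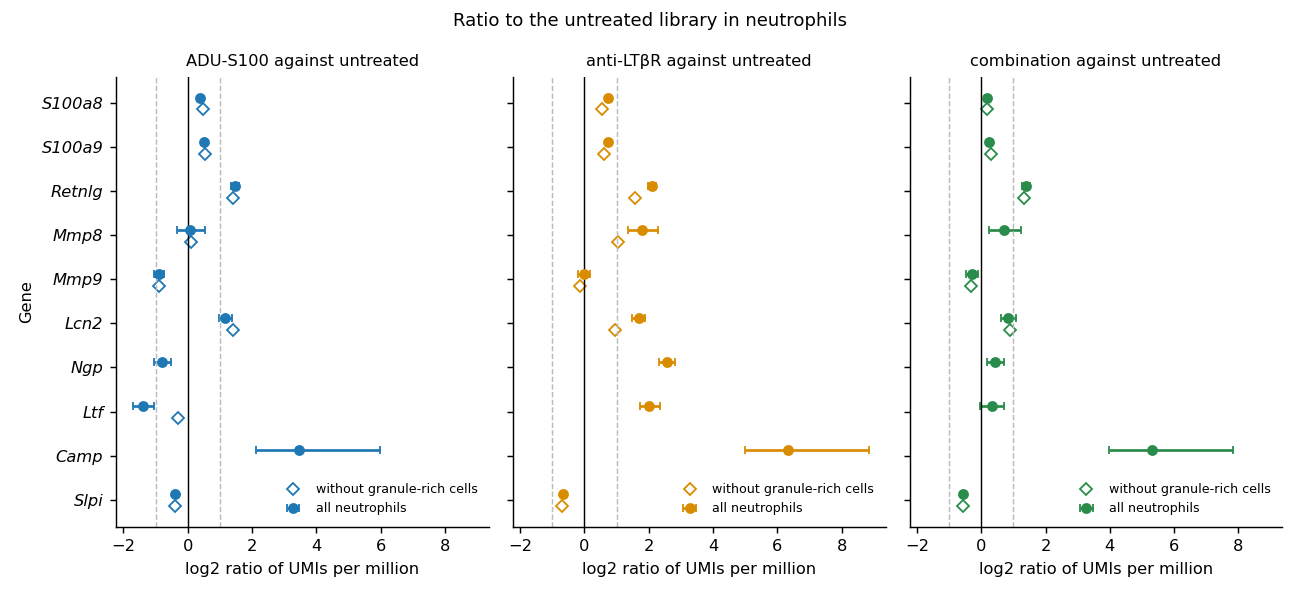
Log2 ratio of each gene in neutrophils to the untreated library, in 1 panel for each treated library, with the exact binomial 95% interval (filled points) and without the granule-rich neutrophils (open diamonds, drawn where 200 or more UMIs remain). Dashed lines mark 2-fold, and Retnlg lies beyond the upper one in all 3 panels with and without those cells.

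Few other genes of the same pathways were 2-fold apart in the same cells. Of all genes with enough UMIs, 2.98% were called higher and 6.04% lower with ADU-S100 than untreated. With anti-LTβR 1.84% were called higher than untreated, and 3.24% were higher in the combination than with ADU-S100. Of 19 further proteins of specific and gelatinase granules, 15 had enough UMIs with ADU-S100 and none was 2-fold from untreated. With anti-LTβR 1 of 12 was higher, the surface protein gene Cd177 (143 against 38.2 CPM), which reached 200 UMIs only through that library. The combination had 2 of 16 above ADU-S100, Chil3 and Lyz2, which macrophages also make and which moved with 5 of the 6 macrophage markers measured. The adhesion receptor gene Itgam stood at 473 to 583 CPM over the 4 libraries. Of 9 azurophil granule proteins, which are made earliest, only Cd63 and Ctsc had 200 UMIs, and Ctsc, which activates the serine proteases of these granules, was lower with ADU-S100 (89.0 against 179 CPM), as were 3 of the 6 macrophage markers, while Mpo held 14 and Elane 9 UMIs over all 6565 neutrophils. Of 8 transcription factors that control granule genes, 4 had enough UMIs and all 4 were within 2-fold in the 5 comparisons, Cebpb, a stress-granulopoiesis factor, at 3276 to 4091 CPM and Spi1, which encodes PU.1, at 358 to 441 CPM. Of 10 S100 genes, S100a8 and S100a9 among them, none of the 7 with enough UMIs with ADU-S100, and of the 4 in each other treated library, was 2-fold from untreated, with S100a11 at 2127 to 2321 CPM, and 2 of 7 were higher in the combination than with ADU-S100, S100a4 and S100a10, in the comparison in which 5 of the 6 macrophage markers were also higher. The part of macrophage RNA in the differences of Chil3, Lyz2, Ctsc, S100a4 and S100a10 was not tested. Of 11 protease inhibitors, Slpi among them, 2 of the 6 with enough UMIs were higher with anti-LTβR, where Wfdc21 stood at 482 CPM against 140.5 untreated. Of 15 inflammatory neutrophil genes 1 of 14 was higher with ADU-S100, the chemokine gene Cxcl3, at 4786 against 1896 CPM.

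The genes most like the members over single neutrophils were sought in counts thinned to 500 UMIs, as the mean Pearson's r of the 4 libraries. S100a9 was nearest to S100a8 among 1127 genes, with a mean r of 0.84 (0.83 to 0.86), and Retnlg followed at 0.42 (0.37 to 0.48). The next were S100a11, Srgn and Actg1 at 0.33 to 0.34. For the sum of Camp, Ngp and Ltf the 5 nearest of 3262 genes were Ifitm6, Aldh2, Cd177, Lcn2 and Wfdc21, with a mean r of 0.17 to 0.31. The points share library and depth, and those for the sum rest on few cells.

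In T and NK cells the members were read as free RNA. S100a9 held 7 UMIs in 1328 such cells of the untreated library, 143 in 691 with ADU-S100, 49 in 2181 with anti-LTβR and 39 in 1406 with the combination. Per cell this was 0.0110% (0.00440 to 0.0226), 0.256% (0.216 to 0.302), 0.0314% (0.0232 to 0.0415) and 0.0800% (0.0568 to 0.109) of the neutrophil level of the same library. The ADU-S100 library, with the most neutrophils, was highest, and 1 cell held 68 of its 143 UMIs. S100a8 gave 0.0319%, 0.208%, 0.0307% and 0.0729%, and Retnlg 0.0238% to 0.177%. Camp and Ngp had at most 1 UMI in T and NK cells of any library, and Camp at 0 of 691 cells with ADU-S100 allowed, at 3 counts, up to 0.434% of cells with a UMI. Subtracting the T and NK level from each neutrophil changed no call of a member other than Ltf, which was then within 2-fold with ADU-S100 and higher with the combination, both against untreated. For Ltf this subtraction is no estimate of free RNA, since its UMIs there lay in T cells and none in NK cells.

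**Figure D5:**
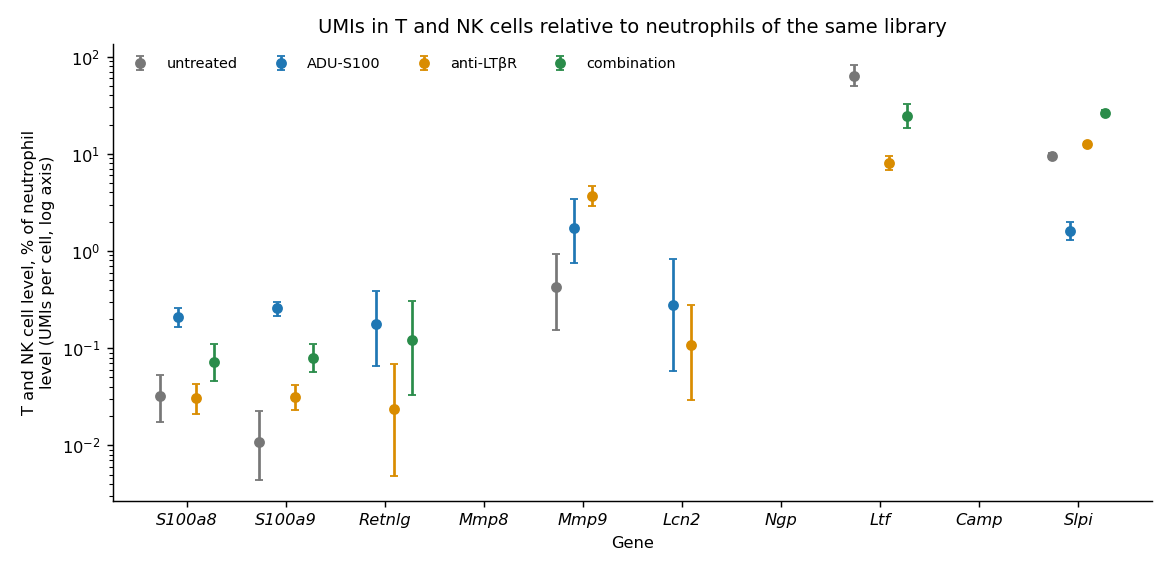
UMIs per T and NK cell as a share of UMIs per neutrophil of the same library (%, log axis), for genes with 3 or more UMIs in T and NK cells, with exact binomial 95% intervals. S100a8, S100a9 and Retnlg lie at 0.0110% to 0.256%, whereas Slpi and Ltf reach 26.3% and 63.8%.

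Outside the ADU-S100 library Slpi and Ltf stood far above the shares of the S100 genes. With ADU-S100 Ltf held no UMI, and Slpi at 1.62% (1.30 to 1.98) was still above the shares of the S100 genes. Mmp9 was also above them at 0.426% (0.156 to 0.936) untreated from 6 UMIs, 1.73% (0.747 to 3.42) with ADU-S100 from 8, and 3.70% (2.88 to 4.69) with anti-LTβR, where 1 cell held 68 of its 76 UMIs. In the combination 2 UMIs gave 0.272% (0.0328 to 0.985), an interval that holds the S100 shares. Slpi and Ltf were the only members with 200 UMIs over 2 libraries in T and NK cells. Slpi stood there at 194 CPM untreated, 27.5 with ADU-S100, 178 with anti-LTβR and 420 with the combination. Slpi was at least 2-fold below untreated with ADU-S100 (0.691% of 6517 genes so called and 0.522% higher). Ltf was at 0 UMIs there against 207 untreated, and is not counted, since it reached 200 UMIs only through the untreated library. Neither differed 2-fold with anti-LTβR (0.54% higher and 0.617% lower of 7781 genes). Slpi of the combination was at least 2-fold above untreated (0.809% of 6553 higher, 0.427% lower), above ADU-S100 (0.688% of 5379 higher, 0.353% lower) and above anti-LTβR (0.504% of 7141 higher, 0.196% lower). Against ADU-S100 it reached 200 UMIs only through the combination. As in neutrophils, single cells weighed heavily, since 1 untreated cell with 101 UMIs of Jchain held 1039 of 1150 Slpi UMIs. Without the 1 cell with most Slpi of each library the levels were 18.8 CPM untreated, 26.3 with ADU-S100, 107 with anti-LTβR and 268 with the combination, so that ADU-S100 was no longer below untreated and anti-LTβR lay more than 2-fold above it. In each of the libraries other than ADU-S100 the cell with most Slpi carried 4 of the 5 B-lineage markers.

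Ltf in T cells came without Camp or Ngp. It was found in 48 of 1075 T cells of the untreated library (4.47%, 3.31 to 5.88), 0 of 474 after ADU-S100, which at 3 counts allows up to 0.633% of cells with a UMI, 27 of 1651 after anti-LTβR (1.64%, 1.08 to 2.37) and 16 of 1115 after the combination (1.43%, 0.822 to 2.32). None of these 91 cells held Camp or Ngp, 2 held S100a9 and 1 held S100a8, and no NK cell of any library held Ltf. Up to 22 Ltf UMIs were counted in 1 T cell, and 21, 18 and 7 cells of the 3 libraries held 3 or more. Between 87.5% and 96.3% of them held Cd8a or Cd8b1, and Lag3, an inhibitory receptor of activated T cells, was found in 68.8% to 85.2% of them against 16.2% to 31.9% of the T cells without Ltf, genes chosen after values were seen. The median depth of the Ltf cells was 5834.5, 4662 and 2065.5 UMIs against 3872, 3135 and 1994, and the part of depth in these shares was not tested. Summed over T and NK cells, Ltf held 0 UMIs with ADU-S100 and 207 untreated. It had enough UMIs for a ratio only through the untreated library. Against a floor of 3 UMIs it was 38.9-fold lower with ADU-S100, a value that takes the untreated count as exact. The interval of the log2 ratio had its upper end at -4.97 and no lower end.

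Myeloid cells with Csf1r were compared as the other large myeloid population. In them S100a9 stood at 0.849 UMIs per cell untreated, 6.32 with ADU-S100, 1.02 with anti-LTβR and 0.711 with the combination. Per 1000000 UMIs of these cells, which were less deeply sequenced in the combination (median 3671 UMIs against 7446 untreated), it stood at 103, 742, 165 and 164, so the order of the combination and untreated libraries depended on the scale. Between 90.3% and 96.4% of those UMIs sat in the 3.44% to 14.4% of cells that also held 2 or more of the neutrophil rule genes. In myeloid cells with none of the rule genes S100a9 was at 0.0181, 0.147, 0.0451 and 0.0409 UMIs per cell, beside 0.00527 to 0.207 per T and NK cell. Slpi held 2.01 to 4.49 UMIs per cell in those cells.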

How the data were processed

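The authors sorted live CD45+ cells, pooled 10 tumours per group and made 5′ gene expression libraries with 10x Genomics kits. The deposited values are raw UMI counts per gene and cell barcode. Cell Ranger 8.0.1 is named in the file headers and 7.1.0, with build mm10, in the submitters' processing notes; the annotation release is not given in the sources used here. Cells with 300 to 5000 genes and up to 6% mitochondrial UMIs were kept. Scrublet (scanpy 1.11.5) called 0, 0, 1 and 0 doublets with its automatic threshold, so the cells with the highest scores were removed instead, at 0.4% per 1000 cells. Of 55090 deposited barcodes 48858 were kept. UMIs were summed over the cells of a population and library. With 1 library per group no test was possible: exact Poisson, Clopper-Pearson and binomial intervals at 95% cover counting error only, since cells are not replicates, and ratios carry 0.5 UMIs added to each count. The ratio script was tested on simulated data. Named genes were the 10 members, at most 3 genes per fixed list and the 5 genes most alike. The members, lists and rules were chosen with earlier results of these data known. The alternatives were 16 in neutrophils, 4 of them added after seeing the data, and 8 in T and NK cells. Python 3.11.15, numpy 2.4.6, pandas 2.3.3 and scipy 1.17.1 were used. A first experiment of the study was not analysed here.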

Additional observations from a re-analysis of the deposited data

Results flagged for a closer look

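For Mmp8, Mmp9 and Slpi the log2 ratio between libraries had one sign in neutrophils and the opposite sign in myeloid cells with Csf1r, counting only genes with 200 or more UMIs over both libraries in each population and both 95% intervals on their side of 0. With 1 library per group the differences between the populations were not tested.

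Mmp9 was lower than untreated in neutrophils and higher in the myeloid cells, with log2 ratios of -0.91 and 1.56 for ADU-S100 and of -0.29 and 1.82 for the combination. Cells with 2 or more neutrophil rule genes were 3.44% of the myeloid cells untreated, 14.4% with ADU-S100 and 3.56% with the combination, and held 77.4%, 67.3% and 17.5% of their Mmp9 UMIs, and 3 of the 4 rule genes were higher there with ADU-S100. In myeloid cells with no rule gene Mmp9 stood at 1.87, 5.40 and 11.1 CPM in the same order. Against anti-LTβR the combination gave -0.27 in neutrophils and 0.78 in myeloid cells. Slpi showed the same split against untreated, with -0.40 and 1.38 for ADU-S100, -0.68 and 1.78 for anti-LTβR and -0.58 and 1.79 for the combination, and against ADU-S100 the combination gave -0.18 and 0.41. Without the 1 neutrophil with most Slpi in each library, the neutrophil ratios to untreated were 0.47, 0.18 and 0.024. Mmp8 of the combination against ADU-S100 had a log2 ratio of 0.65 in neutrophils and -1.96 in myeloid cells.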

How the results depend on the processing

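No paired analysis was possible because each group is 1 library and the labels give no replicate numbers. Each library pools 10 tumours, so the spread between tumours is unknown, and treatment and library cannot be told apart. Retnlg stayed higher than untreated in all 3 treated libraries under each of the 16 alternatives, and S100a8 and S100a9 stayed within 2-fold. Camp, Ngp and Ltf rest on few cells, which the settings without the top or granule-rich cells remove by their construction. For the other changes the cause was not tested.

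Counts of members called in neutrophils, here with Camp and Mmp8 wherever they had 200 UMIs, changed by over 1.5 times as follows, and smaller changes were of 1 member each, such as 2 to 3 higher with the combination than untreated after subtraction of the T and NK level. Against untreated, the 1 lower with ADU-S100 became 2 with 3 or more rule genes or with no marker UMI of other lineages, and 0 after subtraction of the T and NK level or without the top 1% of cells, the top cell or the granule-rich cells. The 6 higher with anti-LTβR became 2 at 500 UMIs, 3 at 1000 UMIs and 2 without the top 1% or the granule-rich cells. The 2 higher with the combination became 1 at either depth and without the top 1%, the top cell or the granule-rich cells. Against ADU-S100, the 3 higher with the combination became 0 at 500 UMIs, 1 at 1000 UMIs and 0 without the top 1%, the top cell or the granule-rich cells, and 1 was lower without the top cell. Against anti-LTβR, the 4 lower became 0 at 500 UMIs, 1 at 1000 UMIs, 1 without the top 1% and 0 without the granule-rich cells.

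In T and NK cells, with all deposited barcodes or no doublet removal, 1 member was higher with ADU-S100 than untreated and 1 lower in the combination than with ADU-S100. Counts in T and NK cells here keep members that had enough UMIs only through the library where they were higher. Ltf, left out of the counts above for that reason, is therefore counted beside Slpi as lower with ADU-S100 than untreated. Without cells holding a rule gene, these 2 lower with ADU-S100 became 1, and 1 was lower with the combination than untreated. As mean UMIs per cell, 1 was lower than untreated with anti-LTβR and 1 with the combination, and the 1 higher with the combination became 0 against untreated and 0 against anti-LTβR. Without the top 1% of cells 1 was higher with anti-LTβR. Thinned to 500 UMIs, the 4 members found in at least 1% of these cells became 1 with anti-LTβR and 1 with the combination. NK cells alone gave no value in any comparison, thinning gave none in 4 and removal of the top 1% none for ADU-S100 against untreated.

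Among ratios called in neutrophils, those of Camp and Ltf reversed in at least 1 comparison. Ratios within 2-fold also changed sign in at least 1 comparison for Ngp, Ltf, Mmp8, Mmp9, Retnlg and Slpi. Of these, Ngp with ADU-S100 against untreated went from -0.79 to 3.76 without the top cell, and Slpi against untreated reached 0.47, 0.24 and 0.065 with ADU-S100, anti-LTβR and both. Against untreated, Ltf with ADU-S100 was 0.069 after subtraction of the T and NK level, which for Ltf is no estimate of free RNA, and 0.17 without the top cell, and with anti-LTβR -0.31 without the granule-rich cells. Camp without the top 1% gave no ratio with ADU-S100 or both agents, since both libraries compared then held 0 UMIs. Between the combination and ADU-S100, Ltf was -0.78 without the top 1%, -0.50 without the top cell and -0.55 without the granule-rich cells, and Camp was -2.21 without the top cell. Camp against anti-LTβR was 0.84 with no marker UMI of other lineages.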
